A study of Mus musculus with 5 samples.

Results

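Among 186413 genomic regions bound by RNA polymerase II in at least 1 of 5 tissues of the mouse, 651 (0.349%) had a peak in kidney, liver, lung and spleen and none in brain. The study mapped the polymerase by chromatin immunoprecipitation and sequencing, in a survey of the promoters in use in adult tissues. Brain, kidney, liver, lung and spleen of FVB mice were minced after dissection, fixed with 1% formaldehyde for 10 min and fragmented to 0.2 to 0.8 kb, and each tissue gave 1 library. All 5 groups share strain and antibody and differ by tissue; neither the age in weeks nor how many animals a library pools is stated. The regions were chosen by the authors' peak lists: windows reaching 250 bp left and right were drawn around every peak position, those that overlapped were merged over all tissues, and merged regions with a position from each of the other 4 tissues and none from brain were kept. Polymerase in brain against polymerase in the other tissues is therefore the contrast that made the set, and values of that contrast are given below as a description.

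RNA polymerase II transcribes the protein-coding genes and many noncoding ones. It gathers at gene starts, where it often pauses shortly after beginning transcription, and it is spread more thinly along the bodies of genes being transcribed. A peak of polymerase in whole tissue therefore marks a place where many cells carry it, or where some cells carry much of it. In bulk tissue fewer cells with polymerase and less polymerase per cell cannot be told apart. The coordinates are those of the deposited files, which fit mm9; no annotation of that build was used here, so regions are named by chromosome and position, and whether a region is a promoter, an exon or an intron was not analysed here. Marker genes of the 5 tissues were not checked for the same reason.

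The libraries held from 10292262 aligned reads in brain to 14964934 in liver. Spleen stood apart: its list had 31594 peaks against 57816 to 91712 in the others, and 12.4% of its reads lay in merged regions against 19.4% to 21.8%. Reads were scaled by factors taken from regions where all 5 tissues had 20 reads or more, and a normalised read below is a read divided by that factor. The spleen factor was 0.671, whereas its total of reads alone would give 1.06, so comparisons that involve spleen depend on the scaling. Values are with scaling on shared regions unless total reads are named; lung moves the other way, from 1.13 to 0.867. Intervals of folds are 95% exact conditional binomial intervals of the raw counts; they cover counting error only, since no tissue had a second library, and the reads carry no molecular identifiers that would tell separate molecules from copies. No p-value was computed.

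The brain library was low at these regions, but it was not empty. Brain reads per region ran from 1 to 61, with a median of 10 and quartiles of 7 and 15. Kidney held 9 to 323 reads (median 28), liver 11 to 1042 (median 31), lung 8 to 196 (median 26) and spleen 9 to 94 (median 22). Per kilobase, the medians were 10.9 normalised reads in brain, 25.4 in lung, 28.5 in liver, 29.1 in kidney and 35.4 in spleen. The order of the 4 tissues turned with scaling by total reads, to 22.4 in spleen, 27.8 in liver, 28.8 in kidney and 33.2 in lung, and brain stayed lowest at 13.7. With scaling on shared regions, the 8641 regions with peaks in all 5 tissues had medians between 48.8 (spleen) and 54.5 (liver), with brain at 51.6. The scaling factors came from regions with 20 reads or more in all 5 tissues. That choice favours near-equal medians at shared regions, so nothing is read from their evenness. By total reads these medians were uneven, at 30.8 in spleen, 49.9 in kidney, 53.2 in liver and 64.7 in brain, with lung the highest. By the medians of either scaling, the regions without a brain peak held fewer reads per kilobase in each library than the shared regions did. Of the 651 regions, 37 had at most 3 brain reads, 264 had 4 to 9, 268 had 10 to 19 and 82 had 20 or more.

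**Figure D1:**
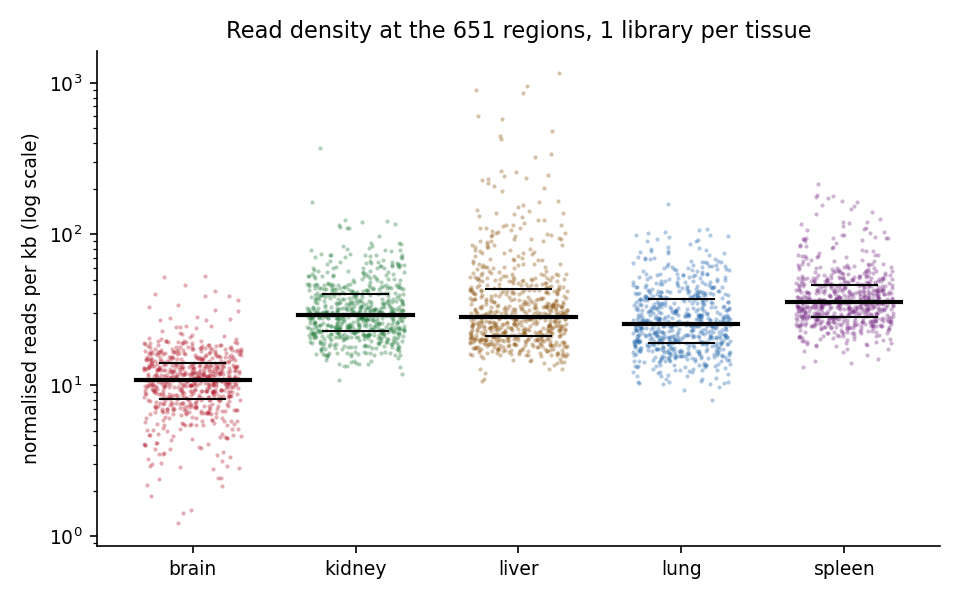
Normalised reads per kilobase (log scale) in each of the 651 regions, 1 point per region and 1 column per library; the thick line is the median and the thin lines are the quartiles. The brain median is 10.9 and the medians of the other tissues run from 25.4 in lung to 35.4 in spleen with this scaling on shared regions; by total reads they run from 22.4 in spleen to 33.2 in lung. Single regions overlap between libraries.

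How far brain lay below the others was read from regions with enough reads. A total of 304 of the 651 (46.7%) held at least 20 reads in each of kidney, liver, lung and spleen; the remaining 347 did not and are covered by the ranges above. In these 304, the median ratio of brain to the median of the other 4 tissues was 0.343 (95% order-statistic interval over regions 0.309 to 0.365), and over all 651 it was 0.351. By total reads these medians were 0.449 and 0.464. Brain lay at least 4-fold under the lowest of the other 4 tissues in 32 of 304, where 0.526% of all 8933 regions with at least 20 reads in each of the 4 tissues did so. It lay at least 2-fold under in 155, where the share over all such regions was 3.95%. Because the rule removed regions with a brain peak, these shares are given side by side and nothing is read from the gap between them. In 9 of the 304 brain was at or above the lowest of the 4, against 74.6% of all such regions. Brain ranked last of the 5 in 295 and first in none; by total reads it ranked last in 259 and first in 3. Scaling by total reads left 15 regions at 4-fold, 89 at 2-fold and 45 at or above the lowest tissue, where the shares over all 8933 regions were 0.224%, 1.56% and 90.0%. For single regions the counts were often too low to place brain: the interval of the fold between the lowest of the 4 tissues and brain lay wholly above 1 in 247 of the 651 and wholly above 2 in 24, and it included 1 in 402. By total reads these counts were 99, 6 and 544. The intervals do not allow for picking the lowest tissue from the same reads. No share over all regions stands beside these counts, which are given as a description.

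Among the 304 regions with at least 20 reads in each of the 4 tissues, the 8 with the largest fold of the lowest tissue over brain, ranked with brain counts under 3 set to 3, held 1 to 5 brain reads. By total reads their folds ran from 3.10 to 16.4, with each interval above 1. The 8 were picked by this fold from the same reads, so nothing is read from that. On chromosome 12 from 112687916 to 112689246, brain held 3 reads, kidney 67, liver 43, lung 34 and spleen 27. Lung was the lowest of the 4 after scaling and lay 10.3-fold over brain (3.25 to 52.5); by total reads spleen was, at 6.97-fold (2.15 to 35.9). Every other library held at least 9 times the brain reads here, and the nearest brain peak was 20400 bp away.

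On chromosome 7 from 148136801 to 148137541, brain held 3 reads, kidney 39, liver 30, lung 32 and spleen 22, with the lowest, liver, 8.84-fold over brain (2.75 to 45.3). The 4 tissues lay at 25.7 to 35.7 normalised reads there. By total reads spleen was the lowest, 5.68-fold over brain (1.71 to 29.7). The region on chromosome 9 from 7872681 to 7873216 held 2 brain, 24 kidney, 74 liver, 32 lung and 42 spleen reads, a fold of 11.4 (2.82 to 99.1) over brain for kidney. Liver and spleen led at this region, at 63.3 and 62.6 normalised reads, and by total reads liver was 1.56-fold over spleen (1.06 to 2.34).

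Others of the 8 were uneven among the 4 tissues. On chromosome 17 from 34442551 to 34443261, brain held 3 reads, kidney 22, liver 24, lung 42 and spleen 85, and spleen was 3.42-fold over lung (2.34 to 5.07), or 1.65-fold (1.13 to 2.45) by total reads. On chromosome 11 from 83698876 to 83699636, brain held 3 reads, kidney 100, liver 22, lung 27 and spleen 21, and kidney was 2.93-fold over spleen (1.81 to 4.93). Between 129131601 and 129132301 on chromosome 6, liver held 783 reads, beside brain 5, kidney 31, lung 71 and spleen 20. Liver was far above the rest here, 10.7-fold over lung (8.38 to 13.8), while the lowest tissue, kidney, was 5.87-fold over brain (2.26 to 19.3). By total reads spleen was the lowest, 3.10-fold over brain (1.13 to 10.6).

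The remaining 2 of the 8 had 1 and 2 brain reads. On chromosome 2 from 121974166 to 121974841, brain held 1 read, kidney 22, liver 30, lung 41 and spleen 22, although a brain peak lay only 1000 bp from the nearest peak of the region. On chromosome 1 from 36329996 to 36330606, brain held 2 reads, kidney 20, liver 31, lung 31 and spleen 38. With so few brain reads the folds over brain are loosely bound, 20.8 (3.36 to 859) at the first and 9.46 (2.30 to 83.5) at the second, with kidney the lowest of the 4 at both.

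The regions with the highest counts in all 4 tissues were mostly wide. Counts were ranked per region and not per kilobase, so width by itself raised a region in this ranking. Ranked by the lowest normalised count among kidney, liver, lung and spleen, the first was 3231 bp wide, on chromosome 7 from 82754126 to 82757356, with 3 kidney, 3 liver, 5 lung and 4 spleen peaks merged. It held 23 brain, 106 kidney, 168 liver, 151 lung and 90 spleen reads. The 4 tissues lay between 97.1 and 144 normalised reads, and the lowest, kidney, was 4.36-fold over brain (2.76 to 7.17). By total reads spleen was the lowest, 3.03-fold over brain (1.90 to 5.02).

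The second, on chromosome 11 from 86394666 to 86396501, held 33 brain, 81 kidney, 175 liver, 179 lung and 85 spleen reads, with a brain peak 750 bp from its own. Next in rank, the region on chromosome 7 from 50707576 to 50710951, was the widest of all at 3376 bp and held 32 brain, 147 kidney, 92 liver, 78 lung and 52 spleen reads. At these 2 the lowest tissue was 2.32-fold (1.53 to 3.59) and 2.22-fold (1.45 to 3.46) over brain. By total reads the folds were 1.83 (1.21 to 2.84) and 1.26 (0.795 to 2.02). Neither reached 2-fold then, and the second was no longer separated from 1.

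Of the next 5, 4 were at least 3-fold over brain by their lowest tissue, and 1 of these by total reads. Chromosome 4 carried a pair of them, 100964581 to 100966281 with a fold of 3.40 (1.94 to 6.20) and 144515851 to 144518301 with 3.51 (1.97 to 6.49). Chromosome 6 carried the others, 34824211 to 34825656 with 3.54 (2.05 to 6.42) and 129187606 to 129188371 with 5.28 (2.83 to 10.7). By total reads the pair on chromosome 4 had folds of 1.71 (0.974 to 3.12) and 1.76 (0.992 to 3.26), no longer separated from 1, and those on chromosome 6 had 2.51 (1.43 to 4.61) and 4.17 (2.24 to 8.47). The region from 129187606 was only 766 bp wide and held 12 brain, 67 kidney, 102 liver, 71 lung and 72 spleen reads. The exception was on chromosome 4 from 104883566 to 104886866, with 40 brain, 74 kidney, 159 liver, 79 lung and 40 spleen reads, where the fold of 1.54 (0.968 to 2.45) was not separated from 1; by total reads it was 0.775 (0.487 to 1.23), on the other side of 1. The 3 of these 8 nearest to a brain peak were 750 to 1325 bp from it, and the 3 farthest 29135 to 50500 bp.

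At the other end, 1 region had at least 50 brain reads. On chromosome 2 from 179995441 to 179997061, brain held 61 reads, kidney 60, liver 40, lung 54 and spleen 46. Brain lay within the range of the other 4 here, at 59.1 normalised reads against 34.2 in liver and 68.6 in spleen, and liver was below brain (0.580-fold, 0.379 to 0.878; 0.451-fold, 0.295 to 0.683, by total reads, where brain was the highest of the 5). The nearest brain peak was 570 bp from a peak of the region.

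Brain reads at these regions differed with the distance to the nearest brain peak. Measured between the nearest peak positions, 105 of the 651 regions (16.1%) lay within 1 kb of a brain peak, 115 from 1 to 2 kb, 104 from 2 to 5 kb, 162 from 5 to 20 kb and 165 (25.3%) farther away. Among those with at least 20 reads in each of the 4 tissues, the median ratio of brain to the median of the others was 0.466 (0.417 to 0.519; 54 regions) within 1 kb. It was 0.410 (0.360 to 0.441; 49 regions) from 1 to 2 kb, 0.351 (0.293 to 0.407; 48 regions) from 2 to 5 kb, 0.308 (0.269 to 0.359; 76 regions) from 5 to 20 kb and 0.249 (0.203 to 0.292; 77 regions) beyond 20 kb. These intervals are taken over regions that share libraries and are not independent. They describe the spread over regions, and the classes were not tested against each other. Of the 9 regions where brain reached the lowest of the 4 tissues, 6 lay within 1 kb of a brain peak and none beyond 5 kb. By total reads the medians were 0.602, 0.540, 0.440, 0.417 and 0.318 in the same order, and of the 45 regions where brain reached the lowest tissue 17 lay within 1 kb, 5 at 5 to 20 kb and 3 beyond. Whether reads of the neighbouring brain peak account for this was not tested.

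**Figure D2:**
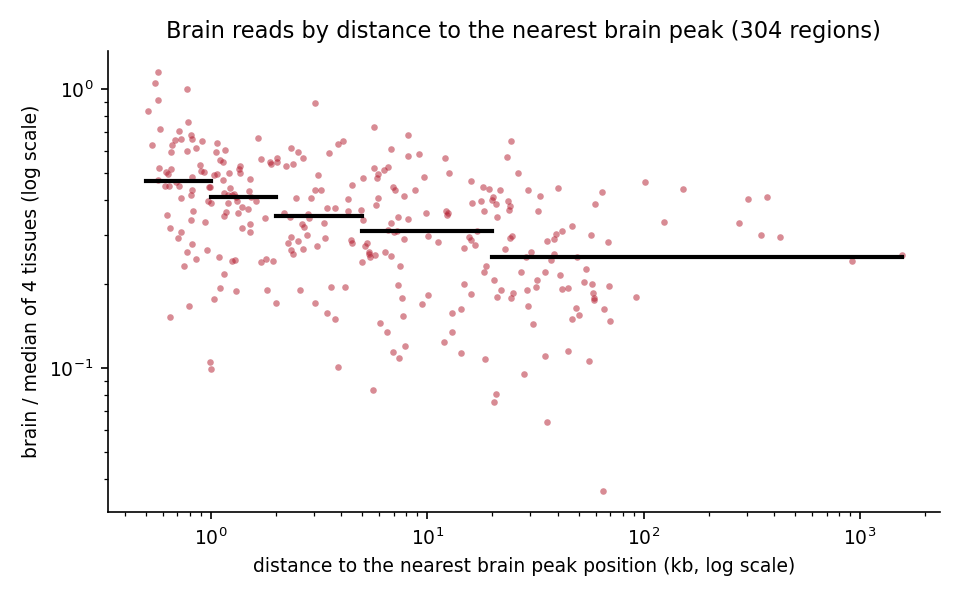
Ratio of brain normalised reads to the median of kidney, liver, lung and spleen (log scale) against the distance in kb to the nearest brain peak position (log scale), for the 304 regions with at least 20 reads in each of the 4 tissues; each point is a region and each black line the median of its distance class. The medians go from 0.466 within 1 kb to 0.249 beyond 20 kb.

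At the edge of the rule, the 21 regions whose nearest brain peak lay up to 100 bp too far to be merged had a median of 24 brain reads (8 to 61) and a median brain ratio of 0.716. The 7 shared regions whose brain peak was near enough by up to 100 bp had a median of 34 brain reads (25 to 60) and a ratio of 0.724. Unlike the ratios by distance class, both were taken without a read minimum, and only with scaling on shared regions.

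Brain reads also formed a low mound at the centre of these regions. To keep neighbouring brain peaks out, this was measured at the 327 regions with no brain peak within 5 kb of their own. There the brain library held 1859 reads within 250 bp of the midpoint and 12540 from 1 to 5 kb away, a density 2.37 times that of the flanks. The same ratio ran from 2.96 (kidney) to 3.61 (liver), with 3.43 for lung and 3.42 for spleen. Only brain peaks were kept out of the flanks, and peaks of the other 4 tissues could lie there. The brain ratio is therefore not directly comparable with the others. Brain was denser in the centre than in the flanks at 289 of 327 regions (88.4%). With the central window moved 3 kb to the left or right, this held at 124 (37.9%) and 123 (37.6%), and the ratio was 0.924 and 0.947. The polymerase peaks that placed these midpoints came from the other 4 tissues, so the brain library had no part in where the centre was put. No input library was used here, and whether a feature of the sequence that raises reads in every library lies at these centres was not tested.

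The central excess in brain was larger at places with peaks in more of the other tissues. Among regions without a brain peak inside or within 5 kb, it was 1.36 at the 50863 with a peak in 1 other tissue, 1.53 at the 8999 with 2, 1.76 at the 2058 with 3 and 2.37 at the 327 with 4. The share of regions with a denser centre went from 59.9% to 67.0%, 74.3% and 88.4% in the same order. Brain density in the flanks varied less, from 4.49 reads per kilobase to 5.04, 5.24 and 4.79, while that of the centres went from 6.11 to 7.71, 9.22 and 11.3.

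Over 649 of the regions, leaving out 2 within 100 kb of the first aligned read of their chromosome, the pooled centre over flank density was 1.43 in brain and between 2.18 (kidney) and 2.59 (spleen) elsewhere, with lung at 2.28 and liver at 2.44. The shared regions gave 5.75 in brain, 4.30 in kidney, 4.12 in spleen, 5.74 in lung and 5.40 in liver. By this ratio the regions without a brain peak rose less above their flanks in all 5 libraries.

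**Figure D3:**
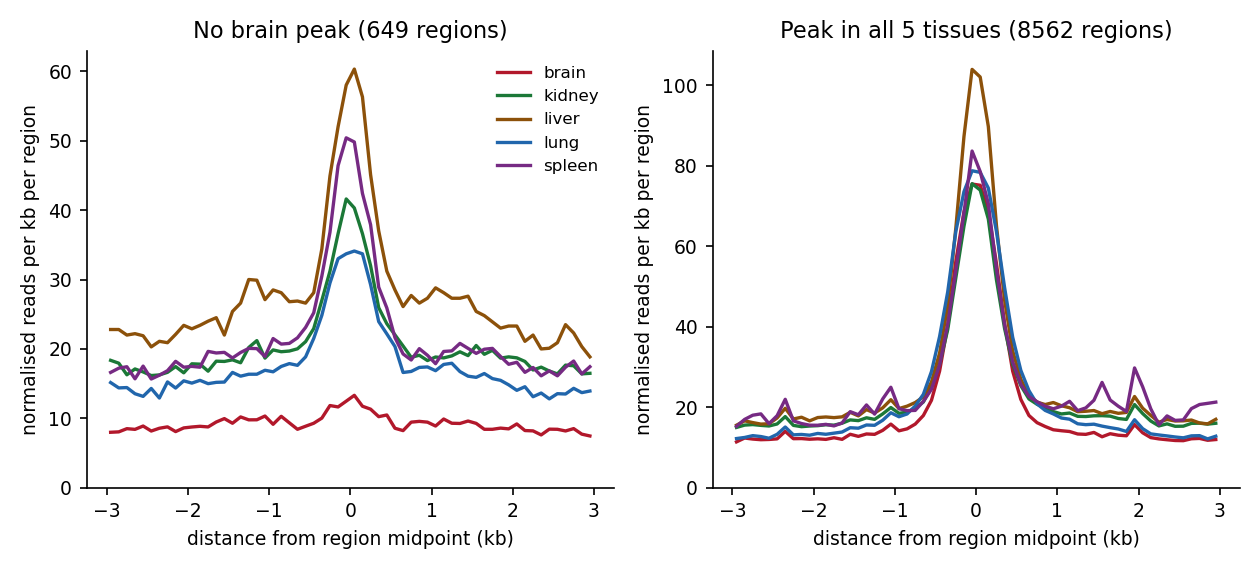
Mean normalised reads per kilobase per region in 100 bp bins against the distance from the region midpoint (kb), 1 line per library, for 649 regions without a brain peak (left) and 8562 with a peak in all 5 tissues (right, on another scale). On the left kidney, liver, lung and spleen peak at the midpoint over a low brain line with a slight central rise, and on the right the 5 libraries all peak.

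Brain was low around the regions as well as in them. Within 250 bp of the midpoint, the summed brain density was 0.296 of the median of the other 4 tissues. From 1 to 2 kb away the ratio was 0.487, from 5 to 10 kb 0.527, and from 20 to 50 kb still 0.630. Around regions with a peak in all 5 tissues it was 0.952 in the centre, 0.733 from 1 to 2 kb and 0.830 from 20 to 50 kb. Scaling by total reads raised both sets, to 0.385 in the centre and 0.803 at 20 to 50 kb for the regions without a brain peak, and to 1.13 and 1.06 for the shared ones. Under either scaling the ratio was lower around the regions without a brain peak at each of the 8 distances. Against single tissues the 20 to 50 kb ratio ran from 0.547 (spleen) to 0.773 (lung), with kidney at 0.625 and liver at 0.634.

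**Figure D4:**
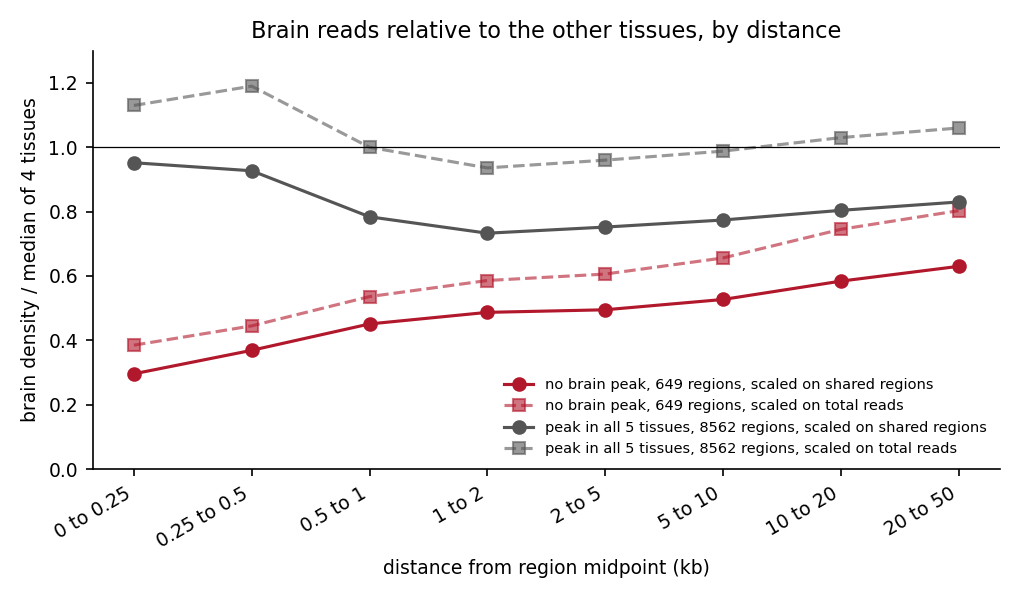
Summed brain density divided by the median of kidney, liver, lung and spleen, by distance from the region midpoint (kb), with scaling on shared regions (solid) and on total reads (dashed). For regions without a brain peak the solid line climbs from 0.296 to 0.630, and for regions with a peak in all 5 tissues it lies between 0.733 and 0.952.

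Within the 4 tissues that had peaks, the order depended on the scaling. With scaling on shared regions, spleen was the highest of the 4 in 139 of the 304 regions, where 24.3% of all 8933 were led by spleen. Liver led 75 (29.2% of all), kidney 46 (22.4%) and lung 44 (24.1%). With scaling by total reads lung led 142 of the 304 (55.4% of all), liver 87 (23.6%), kidney 56 (18.0%) and spleen 19 (2.94%). As a share, spleen led 45.7% of these regions and 22.9% of the 6527 with a peak in all 5 tissues, and 6.25% and 2.80% with scaling by total reads. Lung led 14.5% against 26.8%, and 46.7% against 58.1% with scaling by total reads. The spleen share was thus above that of the shared regions and the lung share below it under both scalings, though which of them came first changed. These gaps were not tested. The minimum of 20 reads was set on raw counts and is uneven after scaling. With scaling on shared regions, the lowest count among the 304 was 29.8 normalised reads in spleen, against 17.1 in liver, 17.7 in lung and 18.3 in kidney. The part of this minimum in the spleen share was not tested. Liver did not keep its direction: it led 24.7% against 33.5% under the first scaling and 28.6% against 26.1% under the second.

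**Figure D5:**
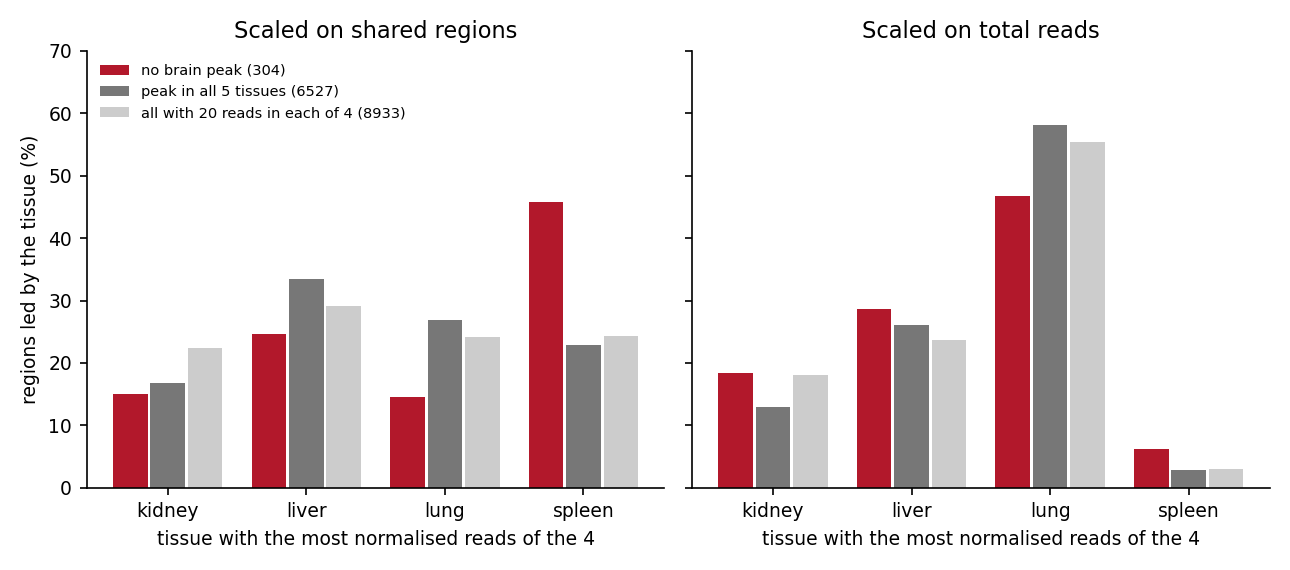
Percentage of regions in which each of kidney, liver, lung and spleen had the most normalised reads of the 4, for 304 regions without a brain peak, 6527 with a peak in all 5 tissues and all 8933 with at least 20 reads in each of the 4, with scaling on shared regions (left) and on total reads (right). Spleen leads 45.7% of the first set on the left and 6.25% on the right, in both cases above the other sets.

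Large leads were few. The highest of the 4 tissues was a median 2.05 times the lowest, with quartiles of 1.71 and 2.89, and 1.95 times at the shared regions. By total reads these medians were 2.17 and 2.56, the other way round. A tissue was at least 2-fold over each of the other 3 in 22 of the 304 for liver (3.97% of all 8933), 14 for spleen (1.97%), 6 for kidney (0.851%) and 1 for lung (1.56%). With total reads the counts were 22 for liver (3.46%), 2 for spleen (0.414%), 6 for kidney (0.582%) and 13 for lung (8.75%). Across the 304 regions, read density per kilobase was most alike in lung and spleen, with a Spearman correlation of 0.594, followed by kidney and lung at 0.497. Brain correlated at 0.103 with liver to 0.242 with lung. These correlations describe regions that share libraries, are not independent, and were picked for having no brain peak.

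Liver gave the largest leads. On chromosome 19 from 44481606 to 44482236, liver held 666 reads, brain 10, kidney 29, lung 18 and spleen 18, which put liver 21.2-fold (13.3 to 36.1) over spleen. On chromosome 7 from 147954626 to 147955616, liver held 553 reads, brain 10, kidney 24, lung 23 and spleen 20, a lead of 15.9-fold (10.2 to 26.2). On chromosome 6, positions 129135411 to 129136456 held 1042 liver reads, beside brain 12, kidney 55, lung 64 and spleen 28, a lead of 15.8-fold (12.3 to 20.7) over lung. The 3 leads were 21.2-fold, 17.4-fold and 11.8-fold by total reads. Brain was not separated from the lowest of the other tissues at the first 2 of these, where the folds were 1.64 (0.718 to 3.98) and 2.10 (0.959 to 4.93), and the 4 libraries other than liver were all low there, at most 29 reads.

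In kidney, the leading regions were the one on chromosome 11 given above and 2 others on chromosome 1. From 74050776 to 74052121, kidney held 109 reads, brain 10, liver 28, lung 38 and spleen 24. From 73984661 to 73985291, kidney held 113, brain 6, liver 20, lung 43 and spleen 16. Kidney led them by 2.79-fold (1.78 to 4.54) and 2.73-fold (1.90 to 3.97), and by total reads by 2.26-fold and 2.07-fold.

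Lung held 196 reads between 61811951 and 61813651 on chromosome 18, against brain 21, kidney 68, liver 37 and spleen 28, a lead of 2.78-fold (2.10 to 3.71) over kidney. The lung regions 7043856 to 7044411 of chromosome 19 and 80085956 to 80086776 of chromosome 10 led by 2.19-fold (1.32 to 3.72) and 2.04-fold (1.19 to 3.66). The lung leads were larger by total reads, at 3.66-fold, 2.93-fold and 3.42-fold. Brain was within counting error of the lowest of the 4 tissues at all 3.

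Spleen held 74 reads between 48626096 and 48626721 on chromosome 6, against brain 6, kidney 21, liver 31 and lung 14, a lead of 4.16-fold (2.70 to 6.55). On chromosome 4 from 64158656 to 64159331, spleen held 66 reads, brain 6, kidney 29, liver 25 and lung 20, a lead of 3.70-fold (2.36 to 5.95) over kidney, and the nearest brain peak lay 913515 bp away. The last, on chromosome 3 from 3032101 to 3033566, is 1 of the 2 regions near a chromosome start; it held 61 spleen and 14 brain reads, with a spleen lead of 3.43-fold (2.19 to 5.47) over liver, and brain was not separated from lung there (1.11, 0.513 to 2.42). The 3 spleen leads were smaller by total reads, at 2.69-fold, 2.36-fold and 2.22-fold, with lower bounds above 1.

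Most of the 651 regions stood alone. Joined across gaps of up to 5 kb they gave 586 places, of which 538 were single regions, 36 were pairs, 7 had 3 regions and 5 had 4. The 5 places with 4 regions tie for the most; the reads given for a place are those in its regions, summed. On chromosome 2 from 121974166 to 121981541, over 7.38 kb, brain held 24 reads, kidney 128, liver 261, lung 154 and spleen 171, and kidney, the lowest of the 4, was 5.05-fold over brain (3.24 to 8.16). On chromosome 6 from 129182606 to 129188371, over 5.77 kb, brain held 23, kidney 134, liver 183, lung 148 and spleen 203, and kidney was 5.51-fold over brain (3.52 to 8.99). On chromosome 12 from 112686516 to 112692346, over 5.83 kb, brain held 22, kidney 199, liver 159, lung 103 and spleen 83, and lung was 4.27-fold over brain (2.67 to 7.10). No brain peak lay in the span of these 3. By total reads the lowest tissue was 3.98-fold, 4.35-fold and 2.92-fold over brain, with spleen the lowest at the last.

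The other 2 held brain peaks between their regions and smaller folds. On chromosome 14 from 63742391 to 63757946, with 2 brain peaks in 15.6 kb, lung was 1.44-fold over brain (1.05 to 2.00), from 65 brain, 142 kidney, 195 liver, 103 lung and 117 spleen reads. On chromosome 15 from 77642836 to 77653186, with 1 brain peak in 10.4 kb, lung was 1.57-fold over brain (1.16 to 2.15), from 70 brain, 146 kidney, 158 liver, 121 lung and 98 spleen reads. By total reads spleen was the lowest at both, 1.39-fold (1.02 to 1.92) and 1.08-fold (lower bound 0.790) over brain, the latter no longer separated from 1. Of the 12 places with 3 or 4 regions, 8 held no brain peak. One of these, on chromosome 6 from 129131601 to 129136456, held 2781 liver reads against 31 in brain and 65 to 214 in the other tissues, and lay within 50 kb of the place with 4 regions on the same chromosome.

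Part of the regions lay beside peaks that brain shared. A region with a peak in all 5 tissues lay within 5 kb of 185 (28.4%), and the median distance to one was 16.6 kb. This was not particular to the set. Where only kidney, liver, lung or spleen lacked the peak, the share was 33.2%, 26.7%, 43.3% and 31.6%. Where a region with a peak in all 5 tissues was within 5 kb, the median brain ratio was 0.407 (0.353 to 0.450; 93 regions with at least 20 reads in each of the 4 tissues), and elsewhere it was 0.308 (0.287 to 0.347; 211 regions). By total reads the medians were 0.549 (0.457 to 0.605) and 0.418 (0.379 to 0.456). The 25 regions at 4-fold among the second group and 7 among the first make up the 32 above.

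Other sets that lack 1 tissue give a scale for the size of this one. Of the regions with a peak in the other 4 tissues, 7.01% had none in brain, against 3.27% with none in kidney (292 regions), 3.51% in lung (314), 16.0% in liver (1651) and 38.6% in spleen (5421). Brain had the longest list, 91712 peaks, and spleen the shortest, 31594; the part of list length in these shares was not tested. Reads of the tissue without a peak, over the median of the other 4, had a median of 0.343 where brain lacked the peak, 0.435 (0.423 to 0.447) where liver did, 0.460 (0.420 to 0.484) where lung did, 0.536 (0.484 to 0.595) where kidney did and 0.626 (0.615 to 0.637) where spleen did. With scaling by total reads spleen was lowest, at 0.351, followed by liver at 0.420, brain at 0.449, kidney at 0.555 and lung at 0.609. The share of regions with the absent tissue at least 4-fold under the lowest of the others was 10.5% for brain, 3.05% for lung, 2.51% for liver and 1.59% for spleen, and no region without a kidney peak reached it. The order changed by total reads, with 8.30% for spleen, 4.93% for brain, 2.25% for liver, 0.990% for kidney and 0.763% for lung.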

How the data were processed

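The authors deposited aligned reads (chromosome, start, end, strand) and a list of peak positions without scores for each of 5 libraries. The aligner is Bowtie per the submitters' processing notes; its settings, the peak caller and the build were not given in the sources used here. Reads on chromosome 7 run to 152524509, past the last gene of the GRCm38 table, which was therefore not used to place genes.

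Reads of 34 to 36 bases were counted at their 5′ end, and each library was scaled by its median ratio over 8222 regions with at least 20 reads in all 5. Counts under 3 were set to 3 for calls; printed folds use the counts as they are. Named regions, at most 1 per 10 kb, are the 8 with the highest lowest count of the 4 tissues (and the 3 of them nearest to and farthest from a brain peak), the 8 with the largest fold over brain and at least 20 reads in each of the 4, 3 per tissue with the largest lead and at least 50 reads in it, those with at least 50 brain reads, and the runs with most regions. The regions and these rules were chosen with earlier results of these data known. Pooled ratios, moved windows, distance classes, numbers of other tissues, total-read values of single regions and the leaving out of 2 regions near chromosome starts were chosen after the data were seen. Call rules were also run on simulated counts that held counting error only, without the choice of regions by peaks. Nothing is read from that run. Tools were SciPy 1.17.1, pandas 2.3.3, NumPy 2.4.6 and Matplotlib 3.10.9 under Python 3.11.15.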

Additional observations from a re-analysis of the deposited data

How the results depend on the processing

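No paired analysis was possible because each tissue had 1 library. The median ratio of brain to the other tissues stayed below 1 in every setting tried. The choice of regions without a brain peak favours such a ratio, so nothing is read from this. The size of the gap moved: the median ratio of 0.343 became 0.449 with scaling by total reads, 0.230 with reads within 250 bp of the midpoint (33 regions with enough reads), 0.260 with at least 50 reads per tissue (12 regions) and 0.158 after subtracting flank density (38 regions). The counts of 32, 155 and 9 regions with brain at least 4-fold under, at least 2-fold under, and at or above the lowest tissue became 15, 89 and 45 with total reads (304 regions), 9, 23 and 0 with the central window, 3, 9 and 0 with the 50-read minimum, 59, 316 and 37 with no minimum, and 15, 31 and 0 after subtraction. Counting each position and strand once gave 20 at 4-fold, of 234 regions, and with 5′ ends moved 100 bp downstream 14 were at or above the lowest. Leaving out each of the 4 other libraries in turn, chosen after the data were seen, gave 40 to 56 regions at 4-fold, with 56 both without lung and without spleen, 180 to 218 at 2-fold, 6 to 13 at or above the lowest, and medians of 0.339 to 0.348. With a tissue left out, 312 to 399 regions had enough reads, and the fold of a region over brain could not fall. The higher counts at 4-fold and 2-fold follow from that.

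Regions led by kidney, liver, lung and spleen numbered 3, 9, 2 and 19 of 33 with the central window and 2, 3, 2 and 5 of 12 with the 50-read minimum. They numbered 112, 167, 75 and 297 of 651 with no minimum, and 3, 13, 7 and 15 of 38 after subtraction. Shares over all regions were not computed under these settings, so nothing is read from the order of the tissues. With total reads lung led 142 and spleen 19. The set itself had 639 regions with windows of 150 bp, 568 with 500 bp, 505 without a brain peak within 1 kb and 408 when kept to 1 kb in width. It had 3447 when a spleen peak was not required, which was also tried only after seeing the data. Flanks 5 to 10 kb away gave centre over flank densities of 1.52 (brain), 2.47 (kidney), 3.03 (liver), 2.70 (lung) and 2.93 (spleen).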

Other observations

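The 651 regions were spread over the 19 autosomes and X, with none on Y. Chromosome 11 had the most, 48, followed by chromosome 4 with 47 and chromosomes 6 and 14 with 45 each. Chromosome 16 had 10 (1.54% of the set), where 3.41% of the regions shared by all 5 tissues lay, and chromosome 18 had 9 (1.38% against 2.62%). Chromosome 12 had 41 (6.30% against 3.89%). X held 18 (2.76%), close to its 2.63% of the shared regions. These shares were not tested.

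On chromosome 9, 2 places with 3 regions each, from 32513331 to 32520516 and from 32547881 to 32554231, held no brain peak. The first had 19 brain, 74 kidney, 60 liver, 76 lung and 85 spleen reads, and the second 51, 170, 128, 257 and 196. The lowest tissue, liver at both, was 2.79-fold (1.64 to 4.95) and 2.22-fold (1.59 to 3.13) over brain, or 2.17-fold and 1.73-fold by total reads. On chromosome 11 from 53587181 to 53593471, 3 regions held 43 brain, 124 kidney, 227 liver, 168 lung and 155 spleen reads, and kidney was 2.73-fold over brain (1.91 to 3.95; 2.15-fold by total reads), with no brain peak in the 6.29 kb.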
